A study of Mus musculus with 12 samples.

Results

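The miR-17~92 cluster is a row of miRNA hairpins that are cut from a single primary transcript. Its 6 guide strands, listed on the array as mmu-miR-17, mmu-miR-18a, mmu-miR-19a, mmu-miR-20a, mmu-miR-19b and mmu-miR-92a and written without the species prefix from here on, were followed here in blood cells of mice with and without the trefoil peptide gene Tff2. They were chosen by name from the 710 miRNAs and star sequences of a mouse miRNA biochip, and all 6 were on it. Tff2 codes for a secreted peptide that protects mucosal epithelium. Blood of 6 Tff2-KO and 6 wild-type (WT) mice was studied with 1 array per mouse, and each genotype held 3 males and 3 females. All mice were of the 129/SV strain, no treatment is named, and their age is not given in the sources used here. The knockouts came from a line made before this study, while a commercial breeder supplied the WT animals, so that genotype and origin cannot be told apart. No mRNA was probed on the array, so the loss of Tff2 itself was not measured. RNA came from pelleted whole blood cells, a mixture of red cells, white cells and platelets, so that fewer cells of a type and less miRNA per cell cannot be told apart.

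The cluster is known for supporting the growth and survival of lymphocytes. Its transcription is driven by Myc, its guide strands repress mRNAs such as that of the cell death protein Bim, and extra copies of it drive B-cell lymphoma in mice. Mice that lack the cluster die around birth and have a block in early B-cell development. The guide strands fall into 4 seed families, since a miRNA recognises its targets mainly through the seed, bases 2 to 8 from its 5′ end. The target mRNAs were not measured on this array.

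The mature sequences from RefSeq (GRCm38.p6) are shown because the near identity of cluster mates and of their paralogs bears on what each probe can tell apart. The hairpins lie on the plus strand of chromosome 14 in the order miR-17, miR-18a, miR-19a, miR-20a, miR-19b, miR-92a, within 836 bases and with gaps of 35 to 96 bases between neighbours. They begin at 115043671 and end at 115044506. RefSeq places the host transcript Mir17hg, a long non-coding RNA, at 115044390 to 115046728, so that in this annotation Mir92-1 lies wholly within it, Mir19b-1 overlaps its start and the first 4 hairpins lie upstream of it. Each sequence is written 5′ to 3′ with the seed in capitals.
miR-17: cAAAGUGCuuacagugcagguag
miR-20a: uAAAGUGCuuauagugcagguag
miR-18a: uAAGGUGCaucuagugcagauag
miR-19a: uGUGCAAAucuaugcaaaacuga
miR-19b: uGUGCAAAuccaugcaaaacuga
miR-92a: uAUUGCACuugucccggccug
miR-17 and miR-20a share the seed AAAGUGC, and their 23 bases differ at 2 positions (C1U and C12U, miR-17 first, counted from the 5′ end). miR-19a and miR-19b share the seed GUGCAAA and differ at 1 of 23 positions (U11C, miR-19a first). miR-18a (AAGGUGC) and miR-92a (AUUGCAC) have no seed mate within the cluster.

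The paralog cluster on the X chromosome gives almost the same molecules, and these are shown because the array carries probes for them next to those of the members.
miR-106a: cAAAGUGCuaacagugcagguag
miR-20b: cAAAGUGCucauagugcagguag
miR-18b: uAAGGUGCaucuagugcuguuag
miR-106a differs from miR-17 at 1 of 23 positions (U10A), miR-20b from miR-20a at 2 (U1C and U10C) and miR-18b from miR-18a at 2 (A18U and A20U), with the member's base first in each. The mature miR-19b and miR-92a are made from both places, with identical copies encoded by Mir19b-2 and Mir92-2 on the X chromosome, so their signal cannot be assigned to 1 cluster. The probe sequences are not given in the sources used here, and cross-hybridization between these near-identical strands was not tested.

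Mean raw intensity ranged from 543 to 1151 over the Tff2-KO arrays and from 375 to 999.98 over the WT arrays (two-sided exact permutation p = 0.396, n = 6 arrays each). Values below 0 numbered 20 to 43 per Tff2-KO array against 14 to 25 per WT array (two-sided exact permutation p = 0.0108), and their part in the results was not tested. Array replicate 5 of the WT mice, a female, gave the lowest raw value of all 12 for miR-17, miR-18a, miR-19a and miR-20a. Of the red cell miRNAs, miR-486, miR-16, miR-451 and miR-144 were all detected on all 12 arrays. miR-142-3p, an abundant miRNA of white cells, was detected on 1 of the 12 arrays, although miR-142-5p, cut from the same hairpin, was detected on all 12. Detected means that the raw intensity exceeded the absolute value of the most negative intensity on that array. miR-122, a liver miRNA, had raw intensities of 112 to 4833 in Tff2-KO and of 52 to 7646 in WT mice. How it and the cell type markers split by sex is given with the comparison of the sexes.

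All 6 guide strands were detected on all 12 arrays. Probes differ in their response, so the intensities of different miRNAs give no order of their amounts. By geometric mean of the quantile-normalized intensity, miR-92a stood at 8419, miR-19b at 6117, miR-17 at 4105, miR-20a at 1610.2, miR-19a at 1215 and miR-18a at 469.5. These were the 12th, 18th, 25th, 46th, 59th and 88th brightest of the 710 miRNAs. Together they made up 4.17% to 4.88% of the summed normalized intensity of a Tff2-KO array and 4.0% to 5.65% of that of a WT array. The SD of the log2 intensity over the 12 mice was 0.25 for miR-92a, 0.36 for miR-17, 0.40 for miR-19a, 0.42 for miR-19b, 0.43 for miR-20a and 0.59 for miR-18a. The median SD over all 710 miRNAs was also 0.59, so that 5 of the members varied less than the median miRNA. Only 300 of the 710 were detected on every array, and miR-142-3p, detected on 1, had an SD of 2.06. Bright miRNAs outside the cluster also had a low SD, such as miR-25 at 0.19, miR-486 at 0.20 and miR-16 at 0.27. The part of brightness in the SD was not tested.

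In the comparison of the genotypes, none of the 6 guide strands changed by the test. After quantile normalization miR-17, miR-20a and miR-19b had a higher mean in Tff2-KO mice and miR-18a, miR-19a and miR-92a a lower one, with fold changes between 0.797 and 1.20, and for all but miR-17, miR-20a and miR-19b the sign turned under median scaling of the arrays. An adjusted p under 0.05 was reached by 0 of the 6 members in limma, as by 0 of all 710 miRNAs (background 0%), and an unadjusted p under 0.05 by 0 of the 6, against 67 of the 710 (9.44%). The median log2 fold change of the 6 members was -0.07, beside 0.01 over all 710 miRNAs, and the median size of the change was 0.24 beside 0.32. Most of the 710 were dimmer than the members. In 0 of the 6 members, and in 8 of all 710 miRNAs (1.13%), did the genotypes not overlap.

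**Figure D1:**
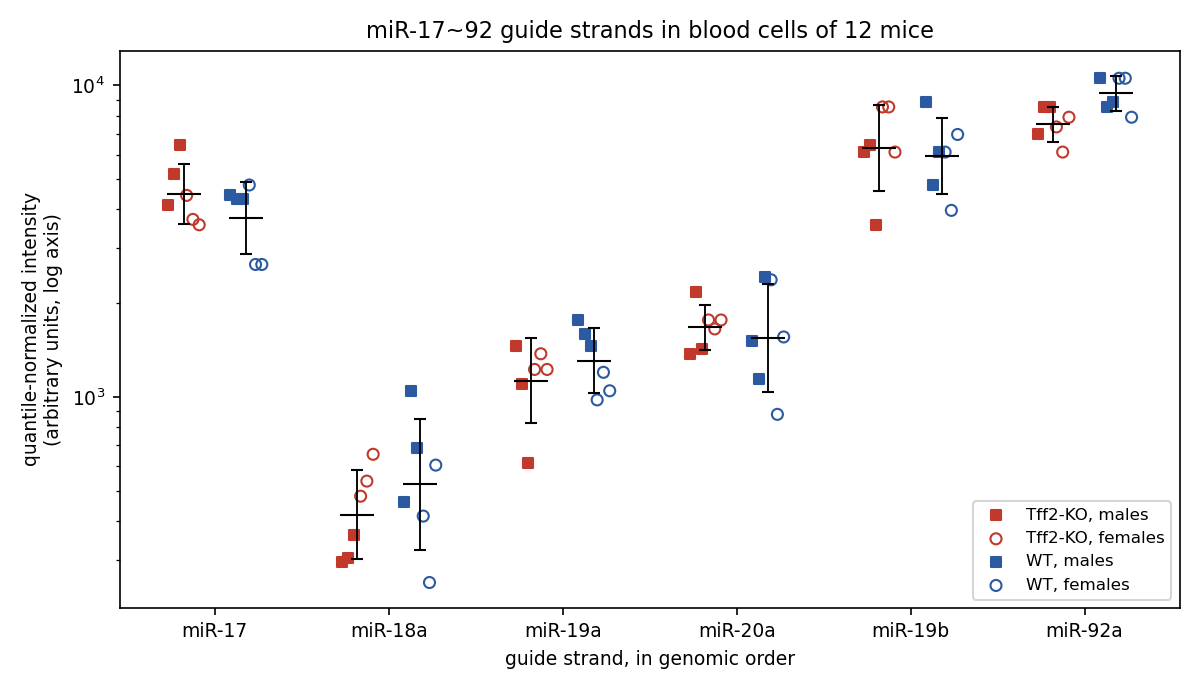
Quantile-normalized intensity (log axis, arbitrary units) of the 6 guide strands in each mouse, with Tff2-KO in red and WT in blue, males as squares and females as open circles. Horizontal lines and bars are the geometric mean ± SD of the log2 values over 6 mice, and the genotypes overlap in every member, least so in miR-92a.

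miR-92a, which shares its seed with miR-25, had the smallest unadjusted p of the members (0.0601 in limma). The normalized intensity of miR-92a was lowest at 6114, with a median of 7636 and a highest value of 8535, in Tff2-KO mice, and 7909, 9709 and 10549 in WT mice. The WT mouse was the brighter one in 31 of the 36 pairs of a Tff2-KO and a WT mouse and the Tff2-KO mouse in 2, while 3 were tied. The log2 fold change, Tff2-KO over WT, was -0.33 (standard error 0.16, 95% interval -0.67 to 0.02, adjusted p = 0.507 in limma). The direction depended on the scaling, since raw intensities were 4601 at the lowest, 8264 at the median and 15944 at the highest in Tff2-KO mice, and 3661, 6494 and 16072 in WT mice, and without normalization between arrays the log2 fold change was 0.16 (standard error 0.40, adjusted p = 0.890).

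miR-17 and miR-20a, which share a seed and so can pair with the same target sites, both had a mean log2 fold change above 0. The normalized intensity of miR-17 was lowest at 3572.5, with a median of 4290.3 and a highest value of 6422, in Tff2-KO mice, and 2664, 4309 and 4793 in WT mice. Tff2-KO replicate 3 was the highest and WT replicates 5 and 6 shared the lowest value, and the other mice of both genotypes overlapped. Its log2 fold change was 0.26 (standard error 0.22, 95% interval -0.23 to 0.74, adjusted p = 0.694). miR-20a lay between 1377 (median 1711) and 2169 in the knockouts, and between 880.1 (median 1538) and 2436 in WT mice. This was a log2 fold change of 0.11 (standard error 0.26, 95% interval -0.46 to 0.69, adjusted p = 0.896). The Tff2-KO mice of miR-20a lay within the range of the WT mice, whose spread was wider (SD of log2 0.58 against 0.24). Without WT replicate 5, the lowest mouse, the log2 fold change of miR-20a was -0.051.

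miR-19a and miR-19b, which in the mouse are the members that drive lymphoma, had log2 fold changes on opposite sides of 0 after quantile normalization, although 1 base separates them, and their ratio did not differ between the genotypes by the test (exact permutation p = 0.206, adjusted p = 0.525 over 15 pairs). miR-19a lay between 613 (median 1227) and 1463 in the knockouts, and between 979 (median 1332) and 1768 in WT mice. This was a log2 fold change of -0.22 (standard error 0.24, 95% interval -0.75 to 0.32, adjusted p = 0.786). Its lowest value was that of Tff2-KO replicate 3, without which the log2 fold change was -0.053. miR-19b lay between 3572.5 (median 6268) and 8535 in the knockouts, and between 3974 (median 6114) and 8869 in WT mice. This was a log2 fold change of 0.08 (standard error 0.26, 95% interval -0.48 to 0.65, adjusted p = 0.921). The genotypes overlapped for both miRNAs, over most of the range for miR-19b and between 979 and 1463 for miR-19a.

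miR-18a, the member with the widest spread, lay between 295 (median 421) and 655 in the knockouts and between 254 (median 533) and 1048 in WT mice. Both the lowest value, WT replicate 5, and the highest, WT replicate 2, were WT mice. Its log2 fold change was -0.32 (standard error 0.34, 95% interval -1.06 to 0.41, adjusted p = 0.747). Its interval was the widest of the 6 members, and the log2 fold change was -0.54 without WT replicate 5 and -0.13 without WT replicate 2.

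The sign of these differences moved with the scaling of the arrays. Without normalization between arrays the log2 fold change was above 0 for all 6 members, at 0.71 for miR-17 and for miR-20a, 0.51 for miR-19b, 0.26 for miR-19a, 0.16 for miR-92a and 0.030 for miR-18a. The median of the members was then 0.38, while that of all 710 miRNAs was -0.08. With median scaling of the arrays the medians were 0.53 and 0.06, and with 75th percentile scaling 0.35 and -0.12, so that the median of the members lay above that of all miRNAs under all 3 of these scalings. Cyclic loess, which like quantile normalization lets the correction vary with intensity, gave -0.11 and 0.01. The smallest adjusted p of any member under these scalings was 0.398, for miR-17 with median scaling. The members are among the brighter miRNAs of the array. Averaged over arrays, mean raw intensity was 750.5 in Tff2-KO against 624.1 in WT mice, but median raw intensity was 94 against 102.7. Raw medians were also higher in Tff2-KO mice for bright miRNAs outside the cluster. They were 28719 against 20889 for miR-16, 11083 against 8198 for miR-25 and 5668 against 3461 for miR-93. The part of brightness was not tested.

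**Figure D2:**
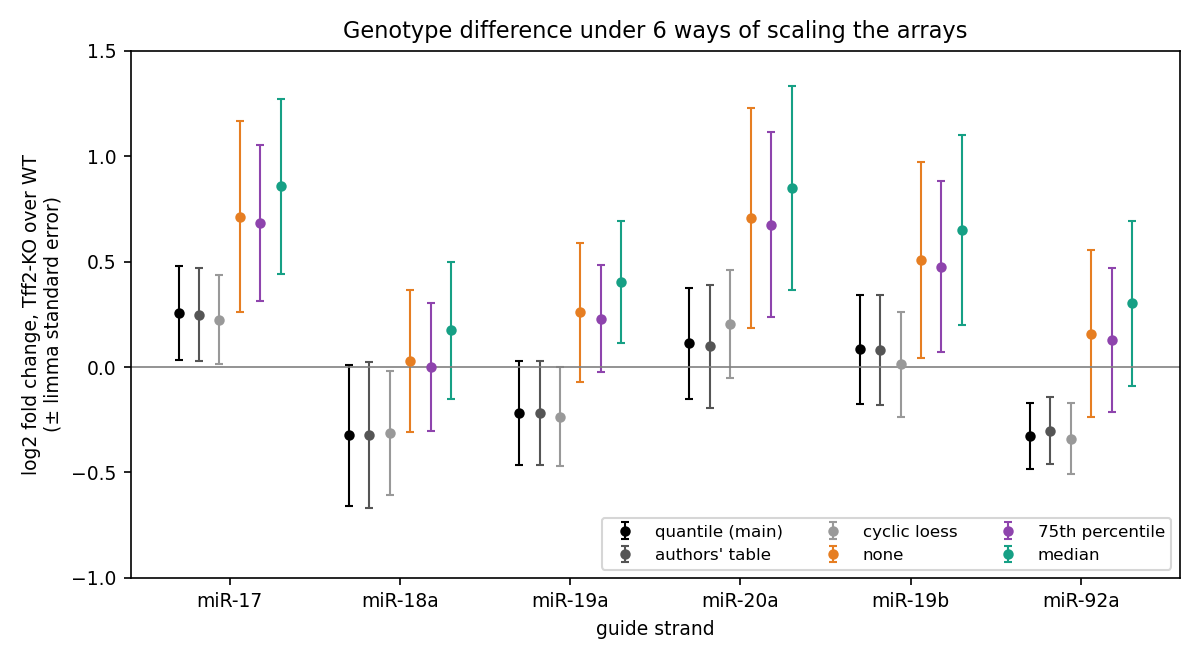
Log2 fold change (Tff2-KO over WT, vertical axis) with limma's standard error for each guide strand under 6 ways of scaling the arrays, with n = 6 mice per genotype. Points of quantile normalization, the authors' table and cyclic loess lie on both sides of 0, while those without normalization or with a single scaling factor lie at or above 0.

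The ratio of 2 members within an array asks whether mates of 1 transcript moved unequally, and on raw values it is free of any factor that scales the whole array. Of the 15 pairs after normalization, miR-17 over miR-92a had the smallest p, while its difference was about the size of that of miR-17 over miR-18a (0.58, exact permutation p = 0.173). Its log2 ratio was between -1.15 and -0.41 in the knockouts and between -1.99 and -0.99 in WT mice, with means of -0.74 ± 0.23 and -1.33 ± 0.38 (SD, n = 6 mice each). The difference of 0.58, a 1.5-fold higher ratio in Tff2-KO mice, had a two-sided exact permutation p of 0.00866, which did not pass after adjustment over the 15 pairs (adjusted p = 0.130). It was 0.56 without normalization between arrays (exact permutation p = 0.0281, adjusted p = 0.422), where miR-17 over miR-18a (0.68) and miR-18a over miR-20a (-0.68) differed by more, with exact permutation p of 0.126 and 0.162. After normalization leaving out single mice gave 0.45 to 0.66 (adjusted p 0.0649 to 0.325). The same difference of the log2 ratio to miR-92a was 0.44 for miR-20a, 0.41 for miR-19b, 0.11 for miR-19a and 0.00 for miR-18a. The 14 other pairs had exact permutation p from 0.134 to 0.991, and none of the 15 passed an adjusted p under 0.05.

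The raw intensities of the cluster mates rose and fell together over the arrays. In raw log2 intensity, Pearson's r of the 15 pairs lay between 0.32 and 0.97 with a median of 0.73. That of all pairs of the 300 miRNAs detected on every array had a median of 0.31 and a 90th percentile of 0.76. miR-17 and miR-20a had the highest r, 0.97 (n = 12 arrays, permutation p = 1e-05, the smallest that 100000 permutations can give, adjusted p = 0.00015 over the 15 pairs), and a Spearman's rho of 0.95 (permutation p = 5e-05). Their r was 0.94 without the 2 arrays farthest from the median, 0.92 in Tff2-KO and 0.99 in WT mice. miR-19a and miR-19b followed with 0.90 (permutation p = 0.00016, adjusted p = 0.0008) and a rho of 0.93 (permutation p = 7e-05), and r was 0.90 again without the 2 farthest arrays. The 5 pairs with miR-18a had the 5 lowest r, between 0.32 and 0.57, and 0 of these 5 passed an adjusted p under 0.05, against 9 of the other 10. Such raw correlations were also seen outside the cluster, with seed mates from another locus. There, miR-93 was at 0.97 with miR-17 and 0.98 with miR-20a, and miR-25 at 0.93 with miR-92a. miR-106b of that locus was at 0.59 with miR-17. These strands are close in sequence, and cross-hybridization was not tested. miR-93 shares 19 of 23 bases with miR-17, and miR-25 shares 18 of 21 with miR-92a.

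This common course went with the brightness of the array. The raw log2 intensity of a member correlated with the log2 of the mean intensity of its array at r = 0.93 for miR-92a, 0.90 for miR-20a, 0.89 for miR-17, 0.84 for miR-19b, 0.71 for miR-19a and 0.41 for miR-18a, and the median over the 300 detected miRNAs was 0.52. The 6 members are part of that mean. Spearman's rho was 0.87, 0.93, 0.92, 0.80, 0.80 and 0.41 in the same order, and the permutation p adjusted over the 6 relations was 0.0117 or less for the first 5 members and 0.185 (r) and 0.191 (rho) for miR-18a. Without the 2 arrays farthest from the median brightness r was 0.87, 0.83, 0.81, 0.78, 0.52 and 0.44. After quantile normalization the 15 pairs had a median r of -0.06, between -0.34 and 0.53, beside 0.00 for the detected miRNAs, with 7 of 15 above 0 and none past an adjusted p under 0.05. Even miR-17 and miR-20a were at 0.42 (permutation p = 0.176, adjusted p = 0.726, rho 0.32 with permutation p = 0.302), and without the 2 farthest arrays at 0.03. miR-19a and miR-19b were at 0.53 (permutation p = 0.0759, adjusted p = 0.726, rho 0.31 with permutation p = 0.320), but at -0.14 without the 2 farthest arrays. With 75th percentile scaling the median was 0.64 and 8 of the 15 pairs passed, so the correlation between mates depended on how the arrays were scaled. Pairs of the detected miRNAs then had a median r of -0.002 and a 90th percentile of 0.65.

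**Figure D3:**
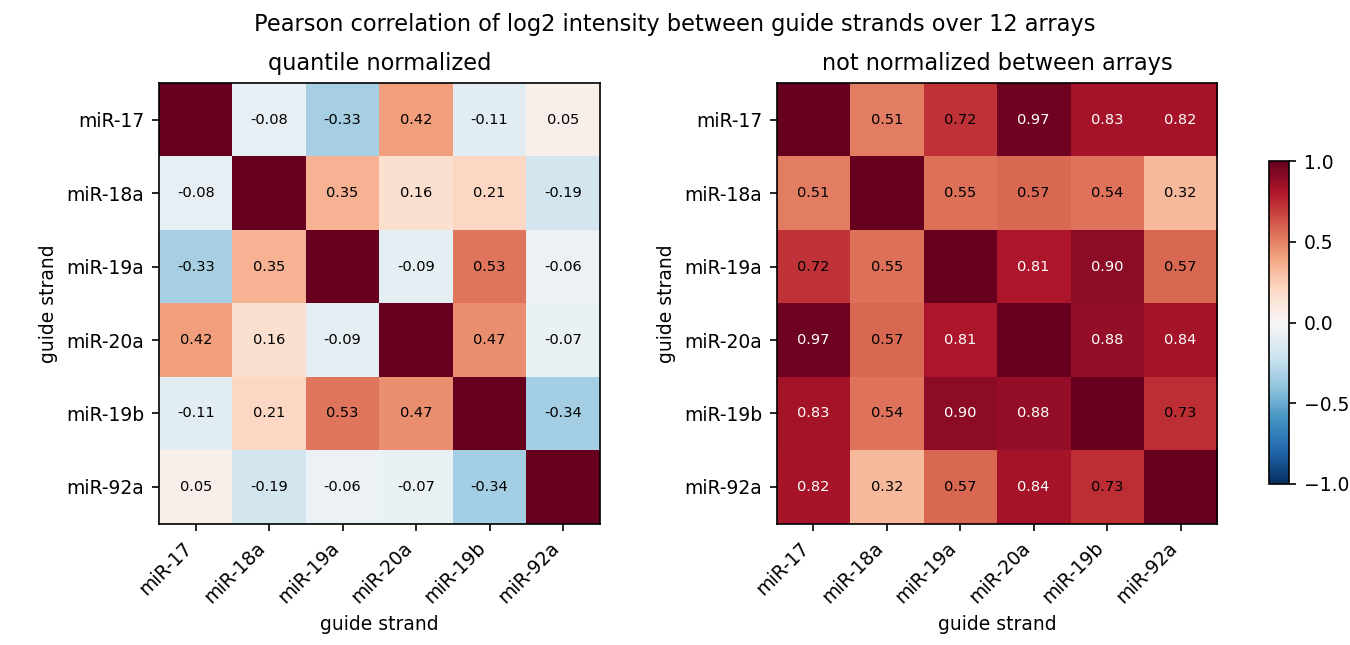
Pearson's r of log2 intensity between each pair of guide strands over the 12 arrays, after quantile normalization (left) and without normalization between arrays (right), on a colour scale from -1 to 1. The right panel ranges from 0.32 to 0.97 and the left from -0.34 to 0.53.

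Sex was the other condition of the mice. Between females and males 0 of the 6 members differed at an unadjusted p under 0.05, against 7.89% of all miRNAs. miR-17 came nearest, with a log2 difference of -0.42 of females from males (unadjusted p = 0.0560, adjusted p = 0.607 in limma). For the difference of the genotype effects between the sexes, miR-18a had an unadjusted p of 0.0137 and was 1 of the 6 members under 0.05, against 10% of all 710 miRNAs, of which 0.141% passed an adjusted p under 0.05.

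In males, miR-18a lay between 295 and 361 in the knockouts and between 461 and 1048 in WT mice. The genotypes did not overlap there, as in 23.8% of all miRNAs, and the log2 fold change was -1.12 (standard error 0.35, adjusted p = 0.291 in limma, 3 males per genotype). In females it lay between 481 and 655 in the knockouts and between 254 and 605 in WT mice, with overlap. The log2 fold change of the females was 0.47 (standard error 0.39, adjusted p = 0.928). The difference of these effects was 1.59 (standard error 0.53, adjusted p = 0.450). miR-19a showed a similar course. Its Tff2-KO males lay between 613 and 1463 and its WT males between 1463 and 1768, the brightest Tff2-KO male being level with the dimmest WT male. Its Tff2-KO females lay between 1227 and 1377 and its WT females between 979 and 1201 without overlap, as in 11.1% of all miRNAs. The log2 fold changes of miR-19a were -0.69 and 0.25, and their difference was 0.94 (standard error 0.43, unadjusted p = 0.0558, adjusted p = 0.502). Of the other members, miR-19b had a difference of 0.76 between the sexes, miR-20a of 0.22, miR-17 of 0.02 and miR-92a of -0.22. The differences of miR-18a and miR-19a were 0.57 and -0.15 without normalization between arrays. With 3 mice per sex and genotype, an unadjusted p under 0.05 was found for 1 of the 6 members in males (15.9% of all miRNAs) and for 0 of the 6 in females (4.37%).

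In the same mice the estimated genotype differences of some markers of cell types and other tissues also lay apart between the sexes. Of 15 markers, 4 had an unadjusted p under 0.05 in limma for the difference of the genotype effects between the sexes. Over all 710 miRNAs this share was 10%, and 0 of the 15 had an adjusted p under 0.05. The red cell marker miR-144 went the way of miR-18a, with log2 fold changes of -1.34 in males and 0.75 in females (difference 2.09, adjusted p = 0.450 in limma). The other red cell markers did not share this size of change. miR-451 was at -0.05 and -0.59 (difference -0.54), miR-486 at -0.15 and 0.15, and miR-16 at -0.23 and 0.09. The lymphocyte marker miR-150 went the opposite way to miR-18a, at 1.64 and -0.89 (difference -2.54, adjusted p = 0.204). The liver miRNA miR-122 did so too, at 3.65 and -1.39 (difference -5.03, adjusted p = 0.450). Its normalized intensity was 1427 to 2436 in Tff2-KO males but 55.3 to 782 in WT males, without overlap, as in 23.8% of all miRNAs. The muscle miRNA miR-133a was at 1.51 and -0.87 (difference -2.37, adjusted p = 0.450). The remaining markers of other tissues did not go this way. The brain miRNA miR-124 was at 0.02 and 0.20 (difference 0.18). The heart miRNA miR-208a, detected on 9 arrays, was at 0.04 and 1.28 (difference 1.25). The platelet and endothelial miR-126-3p was at 0.90 in males and 0.11 in females. Of the myeloid markers, miR-223 had a difference between the sexes of -0.22 (unadjusted p = 0.699 in limma) and miR-142-5p of 0.70 (unadjusted p = 0.181). Summed over the 3 lymphocyte markers, normalized intensity was 1528 to 3092 in Tff2-KO and 528 to 1131 in WT males, and 1027 to 1664 in Tff2-KO and 1859 to 3008 in WT females. Most of this sum was miR-150. By themselves, miR-181a had log2 fold changes of 1.03 in males and -0.01 in females. miR-155, detected on 5 arrays, was at 0.66 and 0.41. The sum of the 4 red cell markers, most of it miR-486 and miR-16, overlapped between the genotypes in both sexes. The part of these markers in the differences of miR-18a and miR-19a was not tested.

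**Figure D4:**
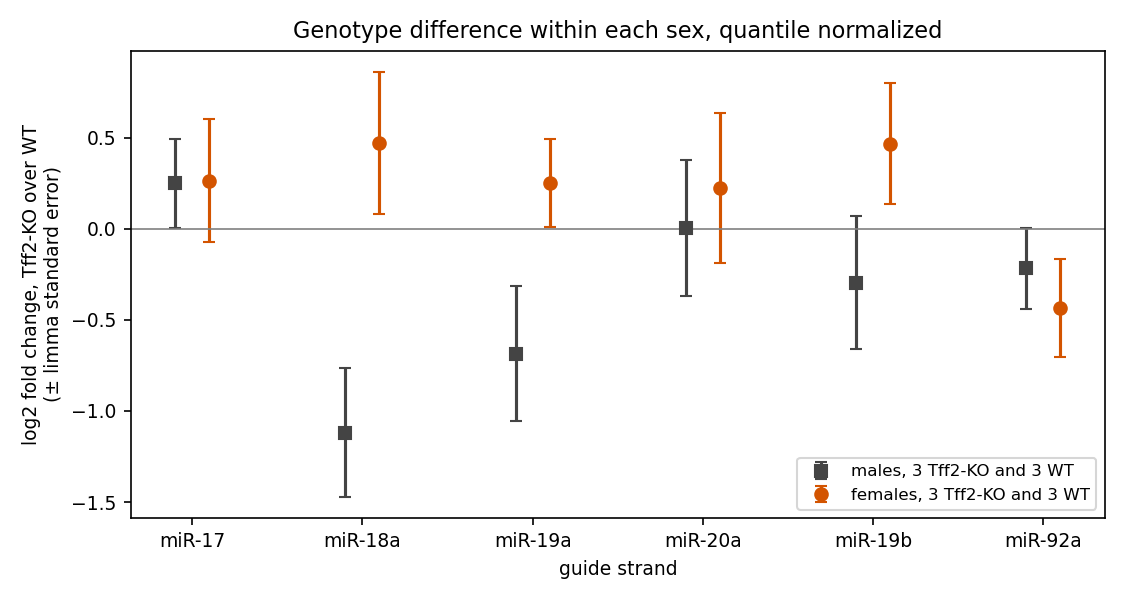
Log2 fold change (Tff2-KO over WT, vertical axis) with limma's standard error in males (squares) and females (circles), 3 mice per sex and genotype. miR-18a is at -1.12 in males and 0.47 in females, while miR-17 is at 0.25 and 0.26.

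The star strands, which are the other arm of each hairpin and are usually degraded, were on the array for 5 of the 6 hairpins. miR-17* was detected on all 12 arrays, with geometric means of 886 in the knockouts and 971 in the controls, a log2 fold change of -0.13 (standard error 0.16). miR-20a* was detected on all 12 and miR-18a* on 11, at means of 140.04 and 139.7. miR-92a* was detected on 5 arrays and miR-19a* on 2, and no fold is given for these. For miR-18a* the log2 fold change was 0.75 (standard error 0.50, adjusted p = 0.591), beside -0.32 for its guide strand. Of the 5 star strands, 0 had an unadjusted p under 0.05. In raw log2 intensity miR-17* correlated with miR-17 at 0.94 and miR-18a* with miR-18a at 0.66 over the 12 arrays, and after normalization these were 0.22 and 0.13. miR-20a* was at -0.18 with miR-20a in raw and at -0.50 in normalized log2 intensity.

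Among the paralogs, miR-106a, 1 base away from miR-17, stood at a log2 fold change of 0.09 (standard error 0.23) and was among the 3 miRNAs most like miR-17 over the arrays (r = 0.83 in normalized and 0.99 in raw log2 intensity, n = 12). For miR-20b it was 0.45 (standard error 0.23), against 0.11 for miR-20a, and the difference was not tested. miR-93 and miR-106b, which share the seed of miR-17 and are cut from an intron of Mcm7, had log2 fold changes of 0.26 and -0.09. miR-25, from the same intron, and miR-92b, which both share the seed of miR-92a, were at -0.07 and 0.03. miR-18b was detected on 10 arrays and miR-363, a further seed mate of miR-92a, on 8, at means of 88.6 and 68.3. Of the paralogs, miR-106b was the one that ran most like miR-18a (r = 0.76 in normalized log2 intensity, n = 12), while miR-18b, its seed mate, was at -0.45. Of these 8 paralogs 0 had an unadjusted p under 0.05. In limma the adjusted p of the 8 ran from 0.519 (miR-20b) to 0.963 (miR-92b).

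Among the 294 other miRNAs detected on every array, those whose normalized log2 intensity ran most like a member over the 12 arrays were mostly not cluster relatives. They were miR-1930 for miR-17 (r = 0.85), miR-500 for miR-18a (0.80), miR-20b* for miR-19a (0.81), miR-421 for miR-20a (0.86), miR-148b for miR-19b (0.72) and miR-590-5p for miR-92a (0.66). These are the highest of many values and are given as a description. Only miR-106a for miR-17 and miR-20b*, a star strand of the X-linked paralog cluster, for miR-19a were relatives among the 3 nearest of each member.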

How the data were processed

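The authors measured blood cell RNA of 12 mice on a Geniom biochip for miRBase version 14, and deposited a linear intensity per miRNA, the median over its 7 spots after background subtraction. A deposited table of quantile-normalized intensity was used as an alternative. Here limma (version 3.58.1, in R 4.3.3) brought the raw intensities of the 12 arrays (-88 to 64375) to common quantiles, and log2 was taken after raising values under 1 to 1. Genotype, sex and their interaction were tested over all 710 miRNAs with lmFit and eBayes and Benjamini-Hochberg adjustment at 0.05. Ratios of members were compared by exact permutation over the 924 groupings, and correlations by 100000 permutations. Alternatives were the deposited normalized table, other ways of scaling, background and floor, sex or the replicate number in the model, a t-test with equal variances, 1 sex alone and single mice left out. The number of arrays limits the precision. Each mouse was taken as a replicate. Named are the 6 members, their star strands, paralogs and 15 markers of cell types and other tissues. For each member, the miRNA with the highest r among those detected on every array is also named, and the 3 highest were searched for relatives. Members and lists were chosen with earlier results of these data known. Scripts were tested on simulated data. Sequences are from RefSeq by miRNA name, for all 6 members and 8 paralogs, and figures were drawn with matplotlib 3.10.9.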

Additional observations from a re-analysis of the deposited data

How the results depend on the processing

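Under the 25 alternatives run, none of the 6 members passed an adjusted p under 0.05 (0.291 to 1). Of 150 values, 135 kept their sign and 15 turned it. Without normalization between arrays miR-18a, miR-19a and miR-92a were at 0.030, 0.26 and 0.16, with median scaling at 0.17, 0.40 and 0.30, and with 75th percentile scaling miR-19a and miR-92a were at 0.23 and 0.13. In males only miR-19b was at -0.30, and in females only miR-18a and miR-19a were at 0.47 and 0.25. When 1 mouse was left out, miR-19b ranged from -0.031 to 0.25 and miR-20a from -0.051 to 0.25, and the genotype difference of the other 4 kept its sign. Alternatives added after the data had been seen put the difference between the sexes at 0.57 to 1.65 for miR-18a and -0.15 (without normalization) to 0.94 for miR-19a, and at 1.27 to 1.90 and 0.57 to 1.23 without 1 mouse, with no adjusted p under 0.236. Over all miRNAs, 4 passed with normexp, 6 among the brighter ones, 2 in males only and 3 in females only, beside 0 otherwise, and at an unadjusted p 113 and 31 in males and females only and 42 (without Tff2-KO replicate 4) to 96 without 1 mouse. Of the 15 correlations, 9 passed without normalization and 8 with 75th percentile scaling. The methods' t-test gave 70 miRNAs at an unadjusted p under 0.05, miR-92a among them, and 0 after Benjamini-Hochberg adjustment. The replicate numbers did not pair the mice (correlations of same-numbered mice from -0.17 to 0.11, with 1 of 6 best matched by its own number), and with a replicate block 50 rather than 67 miRNAs had an unadjusted p under 0.05, 0 an adjusted one. The causes were not tested.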
